A study of Mus musculus with 6 samples.

Results

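Cs, Idh3a, Idh3b, Idh3g, Idh2, Ogdh, Suclg1, Fh1 and Mdh2 encode enzymes of the tricarboxylic acid cycle and are described here in wild-type (WT) and Setd5 +/- neural stem cells (NSCs). These 9 genes were chosen by name, as enzymes or enzyme subunits of the mitochondrial cycle, out of 52438 genes with values. The cells were primary NSCs of the mouse cortex grown attached to Matrigel at 21% oxygen, in a medium with 10 ng/ml bFGF and 10 ng/ml EGF. In the Setd5 +/- cells CRISPR-Cas9 had mutated one copy of Setd5, which encodes a SET-domain chromatin protein, while the WT cells carried no such mutation. RNA-seq with paired reads was run on total RNA, and 3 samples were labelled WT and 3 Setd5 +/-. All 3 Setd5 +/- columns carried the clone name A3, so the mutant cells are described from 1 clone.

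The tricarboxylic acid cycle runs in the mitochondrial matrix, where it oxidises acetyl groups to carbon dioxide and passes the electrons to the respiratory chain as NADH and reduced ubiquinone. Citrate synthase (Cs) starts each turn, the isocitrate, 2-oxoglutarate and succinyl-CoA steps follow, and fumarate hydratase (Fh1) and malate dehydrogenase (Mdh2) regenerate the oxaloacetate that Cs uses. In dividing cells such as NSCs the cycle is also known as a source of citrate for lipids and of precursors for amino acids and nucleotides.

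The samples of a genotype were compared first. Over 12634 genes, the chi-square per degree of freedom of their read counts ranged from 1.93 to 2.00 for the 6 pairs of 1 genotype and from 80.1 to 80.5 for the 9 pairs of unlike genotype. Read pairs counted at both ends would give about 2 from counting error alone, and low counts were mostly even, as such pairs give (73.2% of the values of 1 to 20 reads in WT and 71.5% in Setd5 +/-). Whether reads were counted at both ends is not given, and all column names hold R1, the usual label of the first read of a pair. The variance over the mean within a genotype stayed near 2 across levels, where a difference between cultures would make it climb with the level. It was 1.94 in WT and 1.94 in Setd5 +/- for genes of 50 to 200 reads, and 2.08 and 1.68 for genes of at least 5000 reads. No difference beyond counting error was thus found between samples of a genotype. The column names of a genotype also shared their index sequence and lane and differed in a number, as parts of 1 library would. The sample titles do not say whether the samples were separate cultures. Each genotype was therefore counted as 1 sample, and the genotype cannot be told apart from the clone, the library or the sequencing lane. Per sample, WT held 9995980 to 10004948 reads on genes and Setd5 +/- 7143309 to 7146147. Values are normalized counts, meaning reads on a gene divided by the sample's size factor. A change is the log2 ratio of the mean normalized counts (each plus 1) of Setd5 +/- to WT, with a 95% counting interval that covers counting error only. No p-value is given, because no difference between cultures or clones of a genotype was measured.

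All 9 genes were lower in the Setd5 +/- library, with intervals that left out 0, and none was higher. Genes averaging 10 or more normalized counts over the 6 samples were tested, 16266 in number and all 9 among them, and of these 32.2% were lower in this way and 32.1% higher. By at least 1.5-fold, 5 of the 9 were lower (Idh3a, Suclg1, Ogdh, Mdh2 and Cs), against 15.5% of all genes tested lower and 19.7% higher. The median log2 change of the 9 was -0.59, and that of all genes tested -0.02. In all 9 genes the 3 Setd5 +/- samples lay below the 3 WT samples, as they did in 32.9% of all genes tested, and since samples of a genotype differed by counting error only, this adds nothing to the intervals. The 9 genes are strongly expressed, so they were also set beside the 2984 genes that averaged no less than Suclg1, the lowest of the 9 with 688. Of those, 39.5% were lower beyond counting error and 45% higher, 11.2% were lower and 17.9% higher by at least 1.5-fold, and the median log2 change was 0.03. In bulk RNA, fewer cells of a type and less RNA per cell cannot be told apart.

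**Figure D1:**
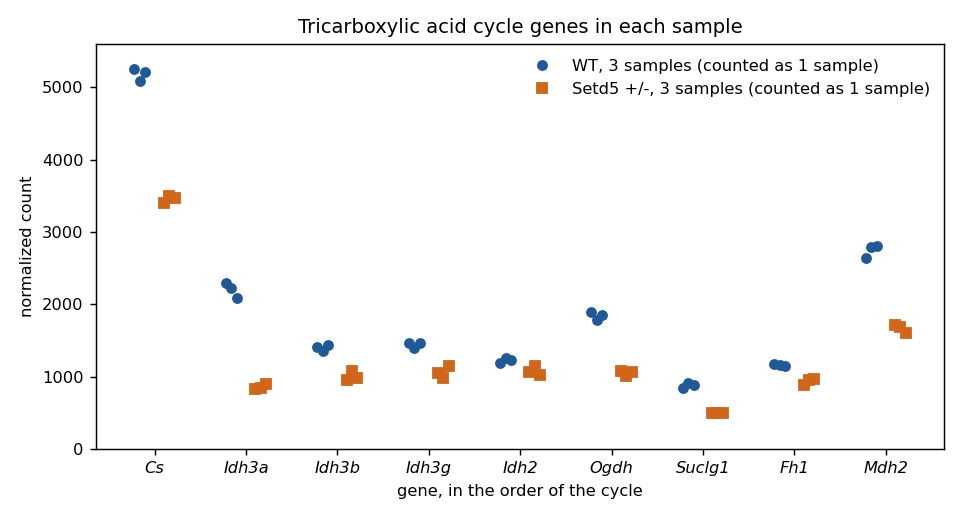
Normalized count (vertical axis, linear from 0) of the 9 genes in the order of the cycle, with 1 point per sample. Blue circles are the 3 WT samples and orange squares the 3 Setd5 +/- samples, each set counted as 1 sample. The orange squares lie below the blue circles for every gene. On this axis the gap is widest for Cs (3456 against 5186) and narrowest for Idh2 (1078 against 1224). As a ratio, the fall is largest for Idh3a (853 against 2202).

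Setd5 (ENSMUSG00000034269), the mutated gene, was counted at 2498, 2749 and 2780 (normalized) in WT and at 2151, 1990 and 2055 in Setd5 +/-. Its level in the Setd5 +/- library was 0.772 of the WT level, a log2 change of -0.37 with an interval from -0.44 to -0.31.

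The stretches before the start sites of the 9 genes are shown where the reference gives one free of annotated exons. A link between these stretches and the changes was not tested. RefSeq (GRCm38.p6) start sites were matched for 8 of the 9 genes, all but Idh3a. The window of 250 bases before the start held no annotated exon for Cs, Ogdh and Fh1, which begin the cycle, carry out its 2-oxoglutarate step and act near its end. The windows are chr10:128337477-128337726 on the plus strand for Cs, chr11:6291347-6291596 on the plus strand for Ogdh (the most upstream of 6 listed starts) and chr1:175625636-175625885 on the minus strand for Fh1. Each reads 5′ to 3′ towards the gene, and capitals mark CCAAT and Sp1 boxes (GGGCGGG) on either strand.
Cs: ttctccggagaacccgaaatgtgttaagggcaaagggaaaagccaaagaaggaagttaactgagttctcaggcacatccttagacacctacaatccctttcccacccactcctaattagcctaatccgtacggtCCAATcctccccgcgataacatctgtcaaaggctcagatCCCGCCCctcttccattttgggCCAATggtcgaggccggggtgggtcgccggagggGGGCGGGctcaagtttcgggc
Ogdh: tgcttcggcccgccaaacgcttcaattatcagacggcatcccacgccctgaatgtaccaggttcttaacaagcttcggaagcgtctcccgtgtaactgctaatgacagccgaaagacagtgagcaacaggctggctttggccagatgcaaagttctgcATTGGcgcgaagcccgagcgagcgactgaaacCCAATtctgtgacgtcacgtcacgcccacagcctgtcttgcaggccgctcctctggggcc
Fh1: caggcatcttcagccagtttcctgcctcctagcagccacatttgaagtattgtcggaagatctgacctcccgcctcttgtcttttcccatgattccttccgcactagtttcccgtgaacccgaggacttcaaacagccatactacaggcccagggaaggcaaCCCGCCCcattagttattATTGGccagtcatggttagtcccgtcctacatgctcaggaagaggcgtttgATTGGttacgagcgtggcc

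Among the 8 genes with a matched start, 5 held CCAAT in the window (Cs, Fh1, Idh2, Idh3b and Ogdh) and 3 held GGGCGGG (Cs, Fh1 and Mdh2). Some of these windows lie partly in annotated exons, which cover 169 bases for Mdh2, 123 for Suclg1, 120 for Idh3g, 96 for Idh3b and 42 for Idh2. Of 27025 promoters of the same length, 34.5% held CCAAT and 23.6% GGGCGGG. The YY1 core AAGATGGC was in the window of Idh3g and in 1.58% of all promoters. No window of the 8 held the NRF1 core GCATGCGC (2.31% of all promoters), the GABP site CCGGAAGT (2.92%), the ERR site TCAAGGTCA (0.366%) or the E-box CACGTG (6.04%). These motifs are not nested in one another. GC content was 55.2% for Cs, 57.2% for Ogdh and 52.8% for Fh1, beside a median of 52% over all promoters. The matches are letters in a window and say nothing of binding.

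Cs (ENSMUSG00000005683) lies at chr10:128337734-128362479 on the plus strand (GRCm38, as are all gene positions given) and encodes citrate synthase, which joins acetyl-CoA to oxaloacetate. Its normalized counts were 5258, 5093 and 5207 in WT and 3397, 3501 and 3469 in Setd5 +/-. The highest Setd5 +/- value lay below the lowest WT value. The level in Setd5 +/- was 0.666 of WT, a log2 change of -0.59 (interval -0.64 to -0.53). This is at the edge of the 1.5-fold threshold, whose log2 is 0.585. Cs was the only one of the 9 with a near-identical copy among the annotated transcripts (at least 90% identity over 200 bases), chiefly Csl, which matches it at 91.9% of 1522 bases. The normalized count of Csl itself was 1522 in WT and 1225 in Setd5 +/-, and reads can be placed on either gene. With the reads of Csl and of a pseudogene (Gm48254, 23.5 and 20.3 normalized counts) added, Cs went from 6732 to 4701, a log2 change of -0.52 (interval -0.56 to -0.47), which no longer reaches 1.5-fold.

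The NAD-dependent isocitrate dehydrogenase, which turns isocitrate into 2-oxoglutarate and makes NADH, is built from the products of Idh3a, Idh3b and Idh3g. Idh3a (ENSMUSG00000032279, chr9:54586334-54604661, plus strand) encodes the catalytic alpha subunit. It had 2291, 2223 and 2093 normalized counts in WT and 822, 846 and 892 in Setd5 +/-. Its level in Setd5 +/- was 0.388 of WT, a log2 change of -1.37 (interval -1.46 to -1.27), and 3.39% of all genes tested had a change at or below this. On chromosome 9, 35 of 907 genes tested had a larger fall.

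Idh3b (ENSMUSG00000027406, chr2:130279309-130284547, minus strand) encodes the beta subunit. It had 1411, 1351 and 1440 normalized counts in WT and 958, 1072 and 973 in Setd5 +/-, a log2 change of -0.48 (interval -0.58 to -0.39). Idh3b shares 5 exon bases with Nop56 on the other strand, the only exon overlap of the 9 genes with another gene. Idh3g (ENSMUSG00000002010, chrX:73778963-73786897, minus strand) encodes the gamma subunit. It had 1459, 1397 and 1457 normalized counts in WT and 1052, 978 and 1142 in Setd5 +/-, a log2 change of -0.44 (interval -0.54 to -0.35).

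The 3 subunit transcripts were thus in another proportion in the Setd5 +/- library. Per length of exon, Idh3a stood at 0.985 of Idh3b in WT (interval 0.937 to 1.03) and at 0.534 in Setd5 +/- (interval 0.493 to 0.579). The log2 difference of this ratio between the libraries was -0.88 (interval -1.02 to -0.75). Against Idh3g, Idh3a went from 0.790 to 0.416, a log2 difference of -0.92 (interval -1.06 to -0.79). The ratio of Idh3b to Idh3g was 0.802 in WT and 0.780 in Setd5 +/-, and its log2 difference of -0.04 (interval -0.18 to 0.09) was within counting error.

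Idh2 (ENSMUSG00000030541, chr7:80094846-80115392, minus strand) encodes the NADP-dependent enzyme of the matrix, which acts on the same substrate and supplies NADPH. It had 1184, 1256 and 1231 normalized counts in WT and 1062, 1148 and 1024 in Setd5 +/-. The highest Setd5 +/- sample came close to the lowest WT sample, and the log2 change of -0.18 (interval -0.28 to -0.09) was the smallest of the 9. Of the 1264 genes tested on chromosome 7, 552 had a larger fall. Idh2 and its cytosolic counterpart Idh1 stood at a ratio per length of 0.596 in WT and 0.537 in Setd5 +/-, with a log2 difference of -0.15 (interval -0.26 to -0.04). Without Setd5 +/- replicate 3 this difference was -0.10 and within counting error. Idh1 lies on chromosome 1, whose genes were shifted upwards in the Setd5 +/- library as given for Fh1.

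Ogdh (ENSMUSG00000020456, chr11:6291633-6356642, plus strand) encodes the substrate-binding component of the 2-oxoglutarate dehydrogenase complex, which makes succinyl-CoA and NADH. It had 1890, 1785 and 1845 normalized counts in WT and 1082, 1009 and 1066 in Setd5 +/-. The level in Setd5 +/- was 0.572 of WT, a log2 change of -0.81 (interval -0.90 to -0.71), and 9.15% of all genes tested had a change at or below this. The partners of Ogdh in the complex were less changed. Dlst, the succinyltransferase core, went from 2250 to 2050 normalized counts (-0.13, interval -0.20 to -0.06), and Dld, the flavoprotein shared with pyruvate dehydrogenase, from 1492 to 1461 (-0.03, interval -0.12 to 0.05). Per length, the ratio of Ogdh to Dlst was 0.508 in WT and 0.319 in Setd5 +/-, a log2 difference of -0.67 (interval -0.79 to -0.56). The ratio of Ogdh to Dld was 0.705 and 0.412, a log2 difference of -0.78 (interval -0.90 to -0.65).

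Suclg1 (ENSMUSG00000052738, chr6:73248382-73276911, plus strand) encodes the alpha subunit of succinyl-CoA ligase, which pairs with Sucla2 in the ATP-forming enzyme and with Suclg2 in the GTP-forming enzyme. It had 834, 916 and 888 normalized counts in WT and 496, 501 and 491 in Setd5 +/-. The level in Setd5 +/- was 0.565 of WT, a log2 change of -0.82 (interval -0.96 to -0.69). Both partners were lower too. Sucla2 went from 832 to 590 (-0.49, interval -0.62 to -0.37) and Suclg2 from 171 to 83.4 (-1.03, interval -1.34 to -0.71). Per length, the ratio of Suclg1 to Sucla2 was 1.55 in WT and 1.23 in Setd5 +/-, a log2 difference of -0.33 (interval -0.51 to -0.15). The ratio of Suclg1 to Suclg2 was 12.7 and 14.7, with a log2 difference of 0.21 and an interval from -0.13 to 0.55 that holds 0. More reads were counted on Gm15163, a processed pseudogene that matches Suclg2 at 98.9% of 1302 bases and had 843 and 442 normalized counts, than on Suclg2 itself, so the level of Suclg2 and this ratio are uncertain. With these reads added, the log2 change of Suclg2 was -0.95 (interval -1.07 to -0.82).

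Fh1 (ENSMUSG00000026526, chr1:175600374-175625635, minus strand) encodes fumarate hydratase, which adds water to fumarate to give malate. It had 1171, 1157 and 1139 normalized counts in WT and 888, 948 and 972 in Setd5 +/-. The level in Setd5 +/- was 0.810 of WT, a log2 change of -0.30 (interval -0.41 to -0.20). Fh1 is the only one of the 9 on chromosome 1, where the genes tested as a whole were higher in the Setd5 +/- library. The median log2 change there was 0.53 over 1044 genes, with 687 genes higher and 104 lower beyond counting error, while the chromosomes of the other 8 genes had medians from -0.10 to 0.01. Of the 1044 genes of chromosome 1, 110 had a larger fall than Fh1. The part of this chromosome-wide shift in the value of Fh1 was not tested. Without Fh1, the other 8 genes were all still lower.

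Mdh2 (ENSMUSG00000019179, chr5:135778480-135790398, plus strand) encodes the matrix malate dehydrogenase, which closes the cycle. It had 2641, 2789 and 2801 normalized counts in WT and 1707, 1687 and 1596 in Setd5 +/-, and the decimal points of these values were settled with the table's mean. The level in Setd5 +/- was 0.606 of WT, a log2 change of -0.72 (interval -0.79 to -0.65). Mdh1, the cytosolic enzyme that works with Mdh2 in the malate-aspartate shuttle, had 2518 and 1208 normalized counts, a log2 change of -1.06 (interval -1.14 to -0.98). Per length, the ratio of Mdh2 to Mdh1 was 1.59 in WT and 2.01 in Setd5 +/-, a log2 difference of 0.34 (interval 0.23 to 0.45).

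**Figure D2:**
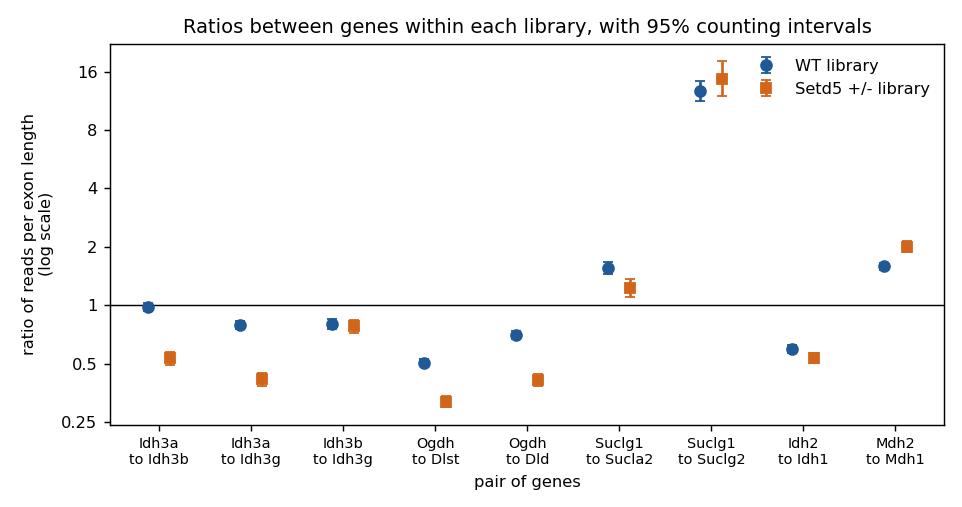
Ratio of normalized counts per exon length for 9 pairs of genes (vertical axis, log scale), with blue circles for the WT library, orange squares for the Setd5 +/- library and bars for 95% counting intervals. The ratio of Idh3a to Idh3b went from 0.985 to 0.534 and that of Ogdh to Dlst from 0.508 to 0.319, whereas that of Idh3b to Idh3g was 0.802 and 0.780.

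Ordered by size, the log2 changes ran from Idh3a through Suclg1, Ogdh, Mdh2, Cs, Idh3b, Idh3g and Fh1 to Idh2. Among neighbours in this order, Idh3a and Suclg1 differed by 0.54 (interval 0.38 to 0.71), Mdh2 and Cs by 0.14 (interval 0.05 to 0.23) and Idh3g and Fh1 by 0.14 (interval 0.00 to 0.28, just above 0). The other 5 neighbouring differences had intervals that hold 0. Summed over the 9 genes, the normalized counts were 18140, 17966 and 18100 in WT and 11464, 11690 and 11626 in Setd5 +/-, a log2 ratio of -0.64.

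**Figure D3:**
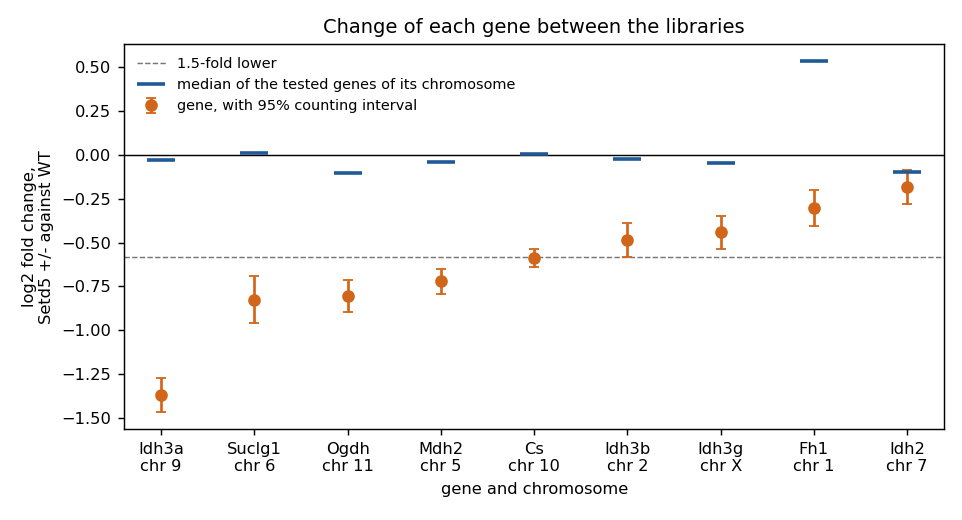
Log2 change of each of the 9 genes in Setd5 +/- against WT (orange points, with 95% counting intervals), ordered by size and labelled with the chromosome; blue bars are the median change of all genes tested on that chromosome and the dashed line is 1.5-fold lower. Idh3a lies lowest at -1.37 and Idh2 highest at -0.18, and the chromosome medians lie near 0 except on chromosome 1, the chromosome of Fh1 (0.53).

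Transcript levels per length differed among the 9 genes. Reads across introns were not placed and all annotated exon bases were counted as length, so the ranks may carry an error that counting intervals do not cover. In WT, Mdh2 stood highest with 1884 normalized counts per kilobase of exon and Cs next with 1772, and Fh1 and Ogdh stood lowest with 438 and 414. Only Idh3b (867) and Idh3a (854) could not be told apart as neighbours in that order. In Setd5 +/-, Cs (1181) and Mdh2 (1142) were no longer apart beyond counting error, and Idh3a, with 331, stood between Fh1 (355) and Suclg1 (327), neither of which differed from it beyond counting error. Ogdh stayed lowest, with 237. The order of Cs and Mdh2 is uncertain in both libraries, because reads can be placed on Cs or Csl and those of Csl were not added here. Measured by normalized counts in WT, the 9 genes ranked between percentile 87.1 (Suclg1) and percentile 99.2 (Cs) of all genes tested.

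Beyond the 9 genes, 55 genes next to the cycle were taken from 10 lists, of which 54 passed the filter (Mrps36, a small subunit of the 2-oxoglutarate dehydrogenase complex, had 4.14 and 3.97 normalized counts). Beyond counting error 27 of the 54 were lower and 16 higher, beside 32.2% lower and 32.1% higher of all genes tested. By at least 1.5-fold 12 were lower and 10 higher, beside 15.5% lower and 19.7% higher of all genes tested. The counts for the single lists below are to be read beside the same shares. Their median log2 change was -0.20. The 54 genes went in both directions, as did all genes tested, and the difference from the 9 cycle genes was not tested.

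Succinate dehydrogenase, which is also complex II of the respiratory chain, had 3 subunits lower and 1 higher beyond counting error. Sdhb, the iron-sulfur subunit, went from 1547 to 1056 (-0.55), and the membrane anchors Sdhc and Sdhd from 2270 to 1412 (-0.68) and from 1276 to 750 (-0.77). Sdha, the flavoprotein that oxidises succinate, was instead higher, from 2935 to 3282 (0.16, interval 0.10 to 0.22). Among the assembly factors of this enzyme, Sdhaf1 (-0.99) and Sdhaf2 (-0.42) were lower, Sdhaf4 was higher (0.34) and Sdhaf3 was within counting error (-0.19, interval -0.61 to 0.22). Sdhc and Sdhaf4 lie on chromosome 1, and Sdhaf1 shares 1733 exon bases with a gene on the other strand, so its reads are uncertain.

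The cytosolic counterparts were mixed. Besides Mdh1, Acly, which splits citrate for lipid synthesis, was lower, from 2866 to 1995 (-0.52), Aco1 was higher, from 1435 to 1624 (0.18), and Idh1 was within counting error, with 2913 and 2848 (-0.03, interval -0.09 to 0.03). Of the 6 paralogs of the cycle genes and relatives of their enzymes, 3 were lower and 2 higher beyond counting error. The largest rise was that of D2hgdh on chromosome 1, a mitochondrial dehydrogenase (36.7 to 77.8, 1.06).

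Of 13 genes for the entry of pyruvate, 6 were lower and 4 higher beyond counting error. They ran from Pdk1, a kinase that switches off pyruvate dehydrogenase, which went from 280 to 101 (-1.46, interval -1.74 to -1.19), to Pdp1, a phosphatase that switches it on, which went from 105 to 176 (0.75, interval 0.47 to 1.02). Of 10 genes that feed or drain the cycle, 5 were lower and 4 higher. The largest fall was that of Got1, the cytosolic aspartate aminotransferase, from 607 to 278 (-1.13), and the largest rise that of Pck2, the mitochondrial phosphoenolpyruvate carboxykinase, from 279 to 1404 (2.33, interval 2.19 to 2.47).

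Of 4 genes that supply the lipoate carried by Dlst, Lipt2, the octanoyl transferase, was lower (39.2 to 17.5, -1.12) and Lipt1, a lipoyl transferase on chromosome 1, was higher (36.4 to 56.0, 0.61). Lipt1 shares 262 exon bases with Mitd1 on the other strand (111 and 152 normalized counts), so its reads are uncertain. Lias, the lipoyl synthase, and Mecr, a reductase of mitochondrial fatty acid synthesis, were within counting error (0.13 and -0.05). Of 4 genes that handle nicotinamide nucleotides in mitochondria, Nnt, the transhydrogenase (633 to 1025, 0.70), and Slc25a51, the NAD carrier (696 to 1092, 0.65), were higher. Nadk2, the NAD kinase, was lower (580 to 333, -0.80) and Sirt3, a deacetylase that uses NAD, was within counting error (-0.03). Nnt shares 3339 exon bases with another annotated gene of the same name and strand, for which there were no values. Sirt3 shares 61 exon bases with Ric8a and 152 with Psmd13, both on the other strand. The reads of Nnt and Sirt3 are thus uncertain too.

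**Figure D4:**
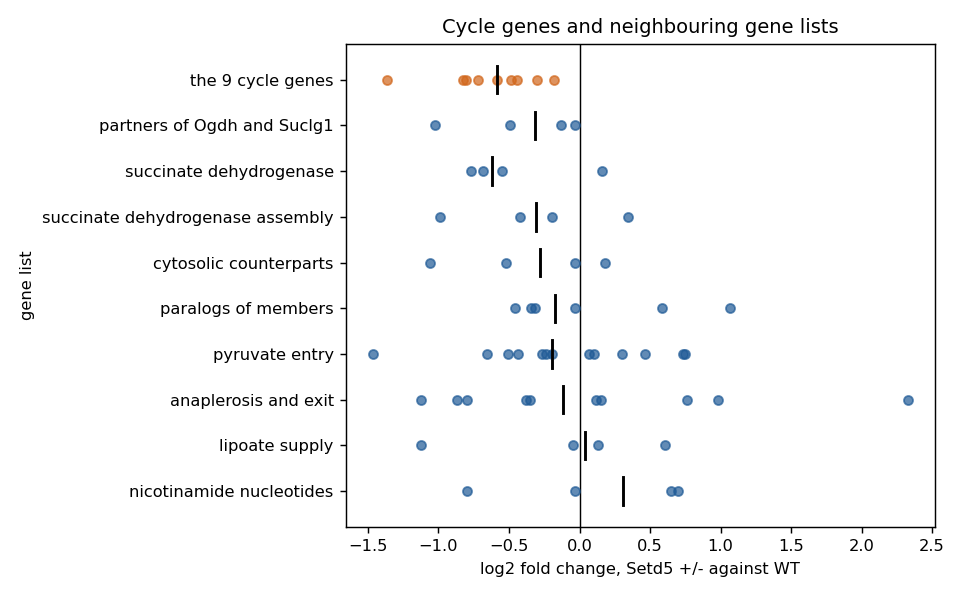
Log2 change in Setd5 +/- against WT (horizontal axis) of the 9 cycle genes (orange) and of the tested genes of the further lists with more than 1 gene (blue), 1 point per gene, with a black bar at the median of each list. All 9 cycle genes lie left of 0, at a median of -0.59, and the other genes lie on both sides, from Pdk1 at -1.46 to Pck2 at 2.33.

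Marker genes of several cell types differed between the libraries as well. The 9 markers of neural stem cells summed to 73981 normalized counts in WT and 53922 in Setd5 +/-, with 5 lower and 3 higher beyond counting error. The lower sum came from Fabp7 (36015 and 11490), without which the others summed to 37966 and 42432. The 6 neuronal markers summed to 403 and 85.4 (3 lower, none higher), with Stmn2 at or under 3 reads in both libraries and Rbfox3 in Setd5 +/-. The 4 astrocyte markers summed to 795 and 1334, with 1 lower and 3 higher, and the 5 oligodendrocyte markers to 498 and 279, with 2 lower and 2 higher. Without Sox10 (298 and 1.59) the other oligodendrocyte markers summed to 199.6 and 277. The 5 proliferation markers summed to 4579 and 5883, with 1 lower and 3 higher. Markers of microglia, endothelium and mesenchyme summed to at most 9.11 in either library. The part of these differences in the levels of the cycle genes was not tested.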

How the data were processed

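RNA-seq of NSCs at 21% oxygen was analysed (3 samples labelled WT, 3 labelled Setd5 +/-). According to the methods and the submitters' processing notes, the authors trimmed reads with Trimmomatic, aligned them to mm10 with Bowtie2, which places no read across an intron, and ran DESeq2. How reads were counted, and whether by strand, is not given in the sources used here. The values the authors deposited are normalized counts, whose decimal points were displaced in many cells. The table's columns of the authors' own comparison (fold changes and p-values) were not used.

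Decimal points were restored by placing each value at a whole number of reads (tolerance 0.001), 1 read being worth 0.827 to 0.829 normalized counts in WT and 1.19 in Setd5 +/-. Of 53110 genes, 672 had no values and 1116 needed the table's mean. On simulated data 99.9981% of 314628 values were recovered.

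Reads of the samples of a genotype were summed, since no difference beyond counting error was found between them. The variance over the mean of their counts was 1.97 in WT and 1.94 in Setd5 +/-, near the 2 that pairs counted at both ends would give. The log2 change used a pseudocount of 1, and its 95% interval the measured average variance of 1.96 times the count. Genes with a mean under 10 were left out. A gene was called lower or higher where the interval left out 0, or where the fold reached 1.5. Lengths, positions and copies (at least 90% identity over 200 bases) are from GENCODE M21 (GRCm38), with blastn 2.17.0. Levels and ratios per length use all annotated exon bases and lack reads across introns, and the counting intervals do not cover this. limma 3.58.1 in R 4.3.3 was an alternative only.

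The 9 genes and the other lists were chosen with earlier results of these data known. All 9 genes, Setd5, the genes of each ratio, all genes of lists of up to 4 genes and the largest fall and rise in the other lists were named, except for items not reported here. Copies of Cs and Suclg2 and the gene left out by the filter (Mrps36) were named after their values were seen, and the copy sums and the sets without chromosome 1 were added after seeing the data.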

Additional observations from a re-analysis of the deposited data

How the results depend on the processing

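Each of the 9 genes stayed lower beyond counting error under all 14 alternatives run for single genes (other scalings, pseudocounts, variance, a sample left out, copies added). Leaving out a sample removes reads that differ from the rest by counting error only. It could hardly change these calls and says nothing of the spread between cultures. The log2 change ranged from -1.41 to -1.32 for Idh3a, from -0.62 to -0.52 for Cs and from -0.23 to -0.14 for Idh2. Cs fell short of 1.5-fold, leaving 4 of the 9 genes past it, when changes were centred on genes outside chromosome 1, with a pseudocount of 10, with copies added, and without WT replicate 1, WT replicate 3 or Setd5 +/- replicate 1. At a threshold of 2-fold, 1 of the 9 genes (Idh3a) was lower, 5 of the other pathway genes were lower and 2 higher, and 998 of all genes were lower and 1668 higher. At a looser threshold, a log2 change of 0.32, 7 of the 9 genes were lower, 23 other pathway genes were lower and 12 higher, and 4616 of all genes were lower and 4828 higher. With no filter, 6066 genes were lower and 6406 higher by 1.5-fold, since many genes with few reads were added. The log2 difference of the ratio of Idh3b to Idh3g ran from -0.15 to 0.0376 when samples were left out in turn and turned positive without Setd5 +/- replicate 3, within counting error as before. Scalings moved the median of all genes by -0.04 to 0.0421.

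With the replicate number as a block, limma on the samples as labelled called 9 of the 9 genes lower, 27 other pathway genes lower and 16 higher, and 5012 of all genes lower and 4934 higher, beside 5028 and 4935 without the block. Deviations of samples with the same number correlated at 0.0049, 0.00153 and -0.00705 over 16266 genes, so the samples shared only a number. These fits treat as replicates samples that differed by counting error only. At this depth the interval of a gene among the 9 reached at most 0.13 to either side of its log2 change, and the spread between cultures or clones of a genotype was not measured.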
